A study of Mus musculus with 2 samples.

Results

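Cytochrome P450 enzymes (*Cyp* genes) and flavin-containing monooxygenases (*Fmo* genes) were followed in the skin of newborn mice with and without PNPLA1, a lipid-metabolising enzyme of differentiated keratinocytes. The genes were chosen by name, as every *Cyp* gene with the usual family, subfamily and number and every *Fmo* gene with a single number on the array, except *Cyp4f39* and *Cyp26b1*. This gave 93 of the 30193 genes on the array, 86 *Cyp* and 7 *Fmo*, and 63 of the 93 were well above background on at least 1 array.

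Total RNA from skin at postnatal day 0 was hybridised to 1-colour (Cy3) Agilent mouse arrays. One array held *Pnpla1*+/+ RNA and the other *Pnpla1*-/- RNA, each pooled from 6 animals on a C57BL/6N background. The mutant line carried a knockout-first *Pnpla1* allele, from which flippase had taken out the reporter and the resistance gene. It is a germline mutation, not restricted to skin, and both genotypes came from the same litters. The labels name the tissue skin, whereas the design text also speaks of epidermis, and markers of dermis, fat and muscle were bright on both arrays (*Col1a2*, *Fabp4* and *Myh8* led their lists), so the RNA was not of epidermis alone. Each array carried 43020 spots besides the controls, of which 71.7% in *Pnpla1*+/+ and 73.3% in *Pnpla1*-/- were well above background, and no spot was saturated. The *Pnpla1* probe itself fell from an intensity of 578.6 to 113.6, a log2 difference of -2.07. Where that probe lies relative to the removed part of the gene was not determined.

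With 1 array a genotype there is no replicate, no test and no spread between mice, and every difference compares these 2 RNA pools. Intensities are given as deposited. A log2 difference is *Pnpla1*-/- minus *Pnpla1*+/+ after each array was divided by its own 75th percentile (1734 and 2108), so a difference of 1 is a 2-fold change on that scale. Repeated spots of a probe within each array gave a technical SD of a difference that depended on brightness. Its median was 0.07 above an intensity of 1000, 0.09 from 100 to 1000, 0.22 from 50 to 100 and 0.36 below 50. This SD holds spot-to-spot noise only, and not the error of labelling, of hybridisation or between arrays. Probes bind with different strength, so levels are compared between the arrays and not between genes. In a tissue, fewer cells of a type and less RNA per cell cannot be told apart.

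P450 enzymes are haem proteins that insert an oxygen atom into lipids, steroids, vitamins and foreign compounds, and those of the endoplasmic reticulum take electrons from P450 oxidoreductase. FMO enzymes use a flavin to oxidise nitrogen and sulfur in drugs and dietary amines. Families 1 to 3 are best known for foreign compounds and family 4 for the omega end of fatty acids and eicosanoids, whereas the higher families act mostly on sterols, steroid hormones, vitamin D and retinoic acid. Skin expresses a set of its own, including *Cyp2b19* of differentiated keratinocytes.

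Of the 63 measured genes, 8 were at least 2-fold higher in *Pnpla1*-/- skin (12.7%), against 6.70% of the 22408 genes measured on these arrays. A further 5 were at least 2-fold lower (7.94%), against 3.04% of all genes, and 42 that were measured on both arrays differed by less than 2-fold. The remaining 8 have only a bound under 2-fold, so that their true change may be larger. The median difference was 0.36, where that of all genes was 0.00. The counts and the median take in genes above background on 1 array only, among them *Cyp2j11* of the lower genes. With probes above background on both arrays only, 8 of 54 members were higher and 4 lower, with a median of 0.34. The shares of all genes were then 5.65% and 2.56%. Among the 37 members with a geometric mean intensity of at least 100 over the 2 arrays, 6 were higher (16.2%) and 3 lower (8.11%), where the shares of all genes of that brightness were 5.73% and 2.44%. The 8 higher genes were *Cyp2c38*, *Cyp7b1*, *Cyp3a13*, *Cyp4f18*, *Cyp2c66*, *Cyp3a25*, *Cyp4a10* and *Cyp1b1*, and the 5 lower genes were *Fmo2*, *Cyp2e1*, *Cyp2j11*, *Cyp2f2* and *Cyp3a57*. A scaling to the E1A spike-in probes takes the added RNA to be equal in amount on both arrays, which was not checked. Under this scaling the same comparison gave 3 higher and 9 lower of 62 members, with a median of -0.07. Of all genes 3.73% were then higher and 9.82% lower, and their median was -0.43.

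**Figure D1:**
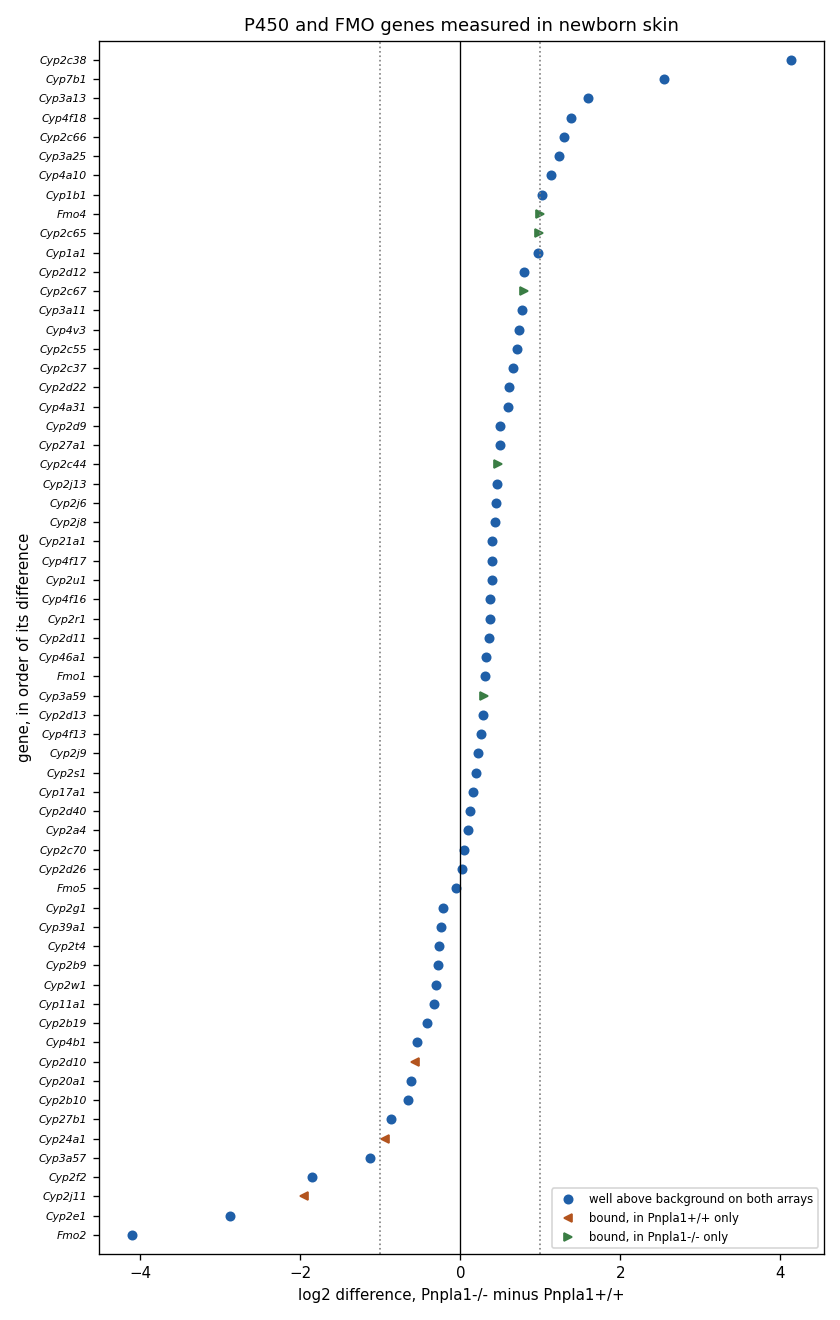
Log2 difference between the *Pnpla1*-/- and *Pnpla1*+/+ arrays (x axis) for 62 of the 63 measured P450 and FMO genes (y axis, in order), with dotted lines at 2-fold. Circles are genes well above background on both arrays and triangles are bounds for genes above it on 1 array; *Cyp2c38* at 4.13 and *Fmo2* at -4.11 stand at the ends, and most circles lie between the lines.

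Of the 63 genes, 54 were well above background on both arrays, 6 in *Pnpla1*-/- skin only and 3 in *Pnpla1*+/+ skin only. For a gene above background on 1 array the difference is a bound, taken against its own dim signal on the other array or, if higher, the dimmest signal there that passed the background flag. The other 30 genes were above background on neither array. They included *Cyp7a1* and *Cyp8b1* of bile acid synthesis, *Cyp19a1* (aromatase), *Cyp11b1* and *Cyp11b2* of the adrenal cortex, and both listed retinoic acid hydroxylases, *Cyp26a1* and *Cyp26c1*.

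Every value of a gene is a value of its probe, so a few probes are shown by their first 30 of 60 bases, 5′ to 3′. They are those of the genes with the largest fall and rise, *Fmo2* and *Cyp2c38*, of *Cyp2e1* and *Cyp3a13*, whose probes gave like and unlike differences, and of *Cyp2u1*, whose probe holds a repeat. Capitals mark a GT repeat.
Fmo2: cttctttttccaacttcaggggttttaatc
Cyp2e1: ttcctcgttcatgagacctgctgcccatca
Cyp2e1, other probe: accaccagcacaactctgagatatgggctc
Cyp2c38: aatggattaattgctctgccaccccattac
Cyp3a13: cctgtggaccagaaaccaattcatattgtg
Cyp3a13, other probe: ctagttccacccatttacctgcaaaattca
Cyp2u1: actttatcattgGTGTGTGTGTGTGTGTGT
Positions are those of the array files on mm9. The *Fmo2* probe lies at chr1:164806827-164806886 on the minus strand and the *Cyp2c38* probe at chr19:39465415-39465474 on the minus strand. No mm9 gene annotation was used, so exons and untranslated regions were not assigned to the probes.

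Among the FMO genes, 5 of 7 were measured, 1 was at least 2-fold lower and none was 2-fold higher. *Fmo2*, the FMO best known from lung, stood at 3137 in the *Pnpla1*+/+ pool and at 149.7 in the *Pnpla1*-/- pool. The difference of -4.11, 17.2-fold lower, was the largest fall among the 63 genes. Like the value given for every other changed member, it was read from a probe with 1 spot on each array. *Fmo1* was at 1179 and 1199 (0.31), and its other measured probe gave 0.20. The 3 probes of *Fmo5* ranged from -0.05 to 0.42. *Fmo4* went from 5.793, below background, to 39.26, a bound just under 2-fold. *Fmo1*, *Fmo2* and *Fmo4* stand close to each other on chromosome 1, and *Fmo2* alone among them was at least 2-fold lower, while the bound of *Fmo4* does not say whether that gene rose by more.

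In the Cyp1 family, the dioxin-inducible enzymes of the aryl hydrocarbon receptor (AHR) pathway, 2 of 3 genes were measured and both were near 2-fold higher. *Cyp1b1*, which also metabolises oestrogens and retinoids, rose from 525.6 to 877.0 (1.02). *Cyp1a1*, the classical AHR target, stood at 83.28 and 134.6 (0.97), and *Cyp1a2*, the liver form, was above background on neither array. The order around 2-fold was close, with *Cyp1b1* just inside and *Fmo4*, *Cyp2c65* (a bound of 0.98) and *Cyp1a1* just outside. *Cyp1b1* reached 2-fold in 5 of 10 alternative settings of the processing. Of 4 other AHR target genes fixed as a list, none reached 2-fold. Their median was 0.52, with *Nqo1* at 0.98, *Tiparp*, the brightest of them, at 4668 and 6769 (0.82), *Aldh3a1* at 0.21 and *Ahrr*, the repressor of the pathway, at -0.33.

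The promoters of the measured Cyp1 genes are shown because AHR with its partner ARNT binds a GCGTG core. The 250 bases before the start site are from RefSeq on GRCm38.p6, in the direction of the gene, with the core in capitals, read as CACGC where it is on the opposite strand.
Cyp1a1, chr9:57697363-57697612, plus strand: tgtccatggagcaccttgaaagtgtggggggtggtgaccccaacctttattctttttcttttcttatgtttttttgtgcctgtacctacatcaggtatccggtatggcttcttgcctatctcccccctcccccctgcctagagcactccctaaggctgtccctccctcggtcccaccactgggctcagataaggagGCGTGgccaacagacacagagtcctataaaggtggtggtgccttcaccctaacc
Cyp1b1, chr17:79715062-79715311, minus strand: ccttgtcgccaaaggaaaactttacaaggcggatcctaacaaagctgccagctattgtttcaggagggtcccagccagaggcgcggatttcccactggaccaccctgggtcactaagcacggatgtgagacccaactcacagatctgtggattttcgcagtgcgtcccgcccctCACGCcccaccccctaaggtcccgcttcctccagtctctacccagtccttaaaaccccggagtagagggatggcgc
The core begins 54 bases before the start in *Cyp1a1* and 76 bases before it in *Cyp1b1*. For the counts, both strands were searched in a longer window that also took in a short stretch after the start. There GCGTG stood in 11 of the 47 members' promoters that the reference held (23.4%) and in 32.5% of all 27025 promoters. A match is a run of letters and not a binding site.

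The Cyp2 family was the largest, with 32 of 44 genes measured, 2 at least 2-fold higher, 3 at least 2-fold lower and a median of 0.25. Within it the Cyp2c genes, which hydroxylate and epoxidise fatty acids and drugs, had 8 of 13 measured, with values from 0.04 to 4.13 and a median of 0.75. Of these 8, 3 passed the background flag in *Pnpla1*-/- skin only and entered that median as bounds. *Cyp2c38* rose from 249.0 to 3581, a difference of 4.13 or 17.5-fold, the largest rise among the 63 genes. A second *Cyp2c38* probe, further towards the 3′ end of the same transcript, was above background on neither array, at 6.705 and 5.915, so the rise rests on 1 of 2 probes. The longest run of bases that the rising probe shared with a probe of another gene was 12. *Cyp2c66* rose from 41.48 to 83.21 (1.29), at a mean intensity from 50 to 100, where the technical SD was 0.22, and came under 2-fold in 2 of 10 alternative settings, with a lowest value of 0.75. The measured genes on either side of *Cyp2c38* on chromosome 19 were *Cyp2c66* and *Cyp2c67*, the latter with a bound of 0.79.

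The *Cyp2c38* promoter is shown because its gene had the largest rise. The 250 bases are from RefSeq on GRCm38.p6, with TATAAA in capitals.
Cyp2c38, chr19:39463076-39463325, minus strand: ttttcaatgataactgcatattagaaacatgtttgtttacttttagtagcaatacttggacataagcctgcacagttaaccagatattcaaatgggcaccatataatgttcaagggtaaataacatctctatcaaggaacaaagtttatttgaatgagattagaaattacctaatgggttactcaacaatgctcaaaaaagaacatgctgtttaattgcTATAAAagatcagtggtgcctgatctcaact
TATAAA, searched on both strands in the same longer window, stood in 16 of the 47 members' promoters (34.0%) and in 14.2% of all promoters. In *Cyp2c38* it begins 31 bases before the start.

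The 3 lower Cyp2 genes were *Cyp2e1*, *Cyp2j11* and *Cyp2f2*. *Cyp2e1*, the ethanol- and acetone-oxidising enzyme of liver that adipose tissue also expresses, fell from 1088 to 121.5 (-2.88, 7.37-fold lower). Its other probe, some distance upstream on chromosome 7, fell from 255.8 to 33.04 (-2.67), so both probes gave a similar size. *Cyp2f2*, known from the club cells of the airway, fell from 2112 to 481.6 (-1.85, 3.61-fold lower). *Cyp2j11* was at 102.8 in *Pnpla1*+/+ skin and below background at 6.492 in *Pnpla1*-/- skin, which gives a bound of -1.96, 3.89-fold lower, on this scale and of -0.55 with normexp background correction. The other 4 measured Cyp2j genes, a subfamily of arachidonic acid epoxygenases, lay between 0.22 and 0.46 at their brightest probes, while a second probe of *Cyp2j13* was at -0.08 and one of *Cyp2j6* at -0.02.

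The Cyp2 genes that stand in tandem with *Cyp2f2* on chromosome 7, 8 measured from *Cyp2s1* to *Cyp2t4*, had a median of -0.27. *Cyp2f2* alone among them was at least 2-fold lower, and the others lay between -0.66 and 0.19. *Cyp2b19*, the keratinocyte epoxygenase, stood at 5340 and 3277 (-0.42), *Cyp2g1*, first known from olfactory mucosa, at 4572 and 3221 (-0.22), and *Cyp2s1*, a retinoid-metabolising P450 of epithelia, at 7105 and 6666 (0.19). The sign of *Cyp2s1* turned in 2 of 10 alternative settings, to -0.24 under spike-in scaling. *Cyp2b10*, the usual reporter of the receptor CAR in liver, was at 4102 and 2129 (-0.66). The 8 measured Cyp2d genes on chromosome 15 ranged from -0.57, a bound for *Cyp2d10*, to 0.80, and none of these values reached 2-fold.

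**Figure D2:**
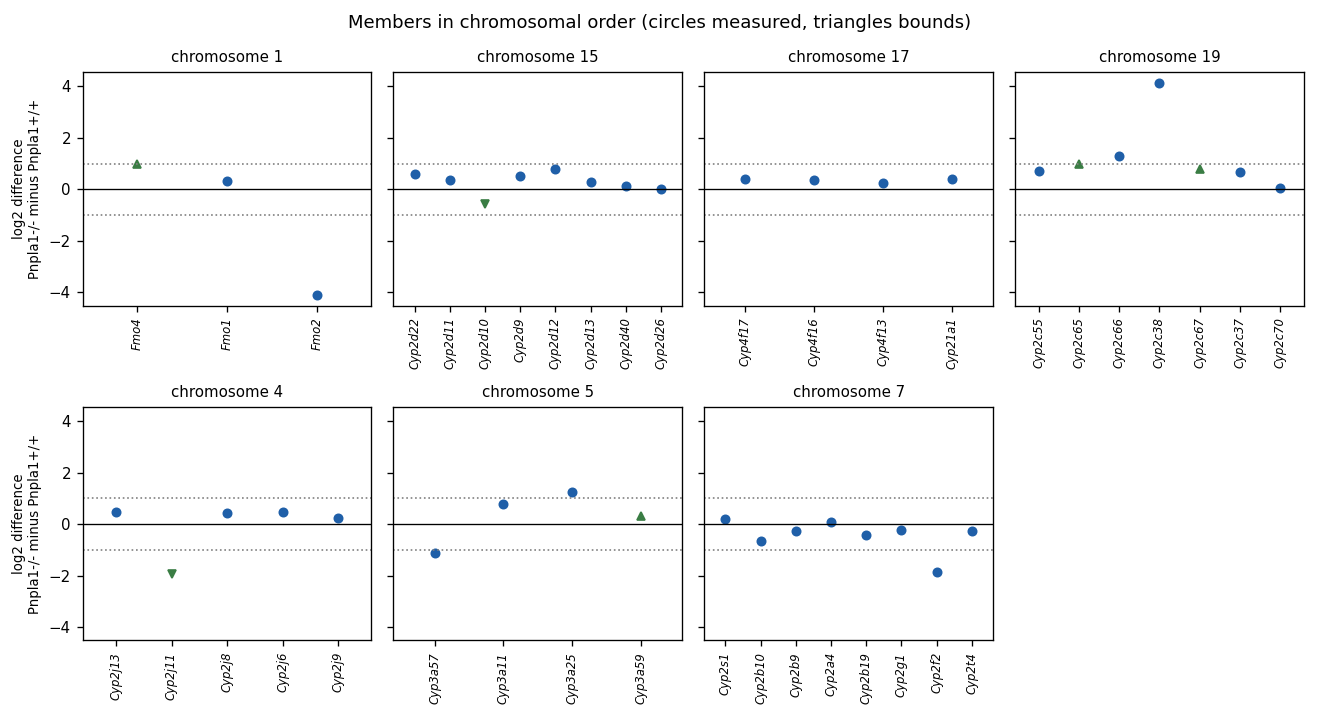
Log2 difference between the *Pnpla1*-/- and *Pnpla1*+/+ arrays (y axis) for measured members in their order along 7 chromosomes (x axis), where at least 3 stood with gaps of up to 2 Mb; circles are measured differences, triangles bounds, and dotted lines 2-fold. *Fmo2* (-4.11), *Cyp2c38* (4.13), *Cyp2j11* (-1.96) and *Cyp2f2* (-1.85) each stand away from neighbours that mostly lie between the lines.

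*Cyp2u1* had the brightest probe of all members, at 79576 and 85526 (0.39), but this probe holds a GT repeat of 32 bases, shown in capitals above as far as its first 30 bases reach. Of 39420 probes, 69 held a GT repeat of at least 16 bases, and their median intensity in *Pnpla1*+/+ skin was 36146 against 197.6 for all probes. The same *Cyp2u1* probe shared a run of 35 bases with a probe of *Ldlrad3*. A *Cyp2u1* probe elsewhere gave 94.87 and 92.64 (0.25), and the third was above background on neither array. The value of the bright probe is therefore not read as a level of *Cyp2u1*.

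In the Cyp3 family, broad-range drug and steroid hydroxylases, 5 of 7 genes were measured, 2 were at least 2-fold higher and 1 lower. *Cyp3a13* rose from 293.8 to 733.9 (1.60) at its brighter probe, whereas its other probe stood at 238.6 and 222.0 (0.18). With the mean over both probes the difference was 0.89, under 2-fold. *Cyp3a25* rose from 30.98 to 59.78 (1.23), at a mean intensity under 50, where the technical SD was 0.36, and stayed at least 2-fold higher in 7 of 10 alternative settings, with a lowest value of 0.62. *Cyp3a57* fell from 99.74 to 37.61 (-1.13), where the technical SD was 0.22, and its difference was -0.36 with normexp background correction. *Cyp3a11*, the main Cyp3a enzyme of mouse liver, lay at 56.28 and 78.80 (0.77).

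In the Cyp4 family, 8 of 14 genes were measured, 2 were at least 2-fold higher and none lower. *Cyp4f18*, a leukotriene hydroxylase of neutrophils, rose from 565.8 to 1214 (1.38; 0.95 under spike-in scaling). An almost coincident probe gave 1.43, and an unnamed probe that shares 50 bases with it gave 363.8 and 1044 (1.80), so these 3 probes read the same stretch and are not independent. *Cyp4a10*, a PPAR-responsive omega-hydroxylase, rose from 123.2 to 222.3 (1.13), and its other probes gave 0.49 and a bound of 1.05. It stayed at least 2-fold higher in 6 of 10 alternative settings, with a lowest value of 0.70. The *Cyp4a10* probe shares 34 bases with a probe of its neighbour *Cyp4a31*, at 120.8 and 149.6 (0.59), so the pair cannot be told apart with certainty. *Cyp4f13*, *Cyp4f16* and *Cyp4f17* lay between 0.26 and 0.39, and *Cyp4b1* at 2361 and 1331 (-0.54).

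**Figure D3:**
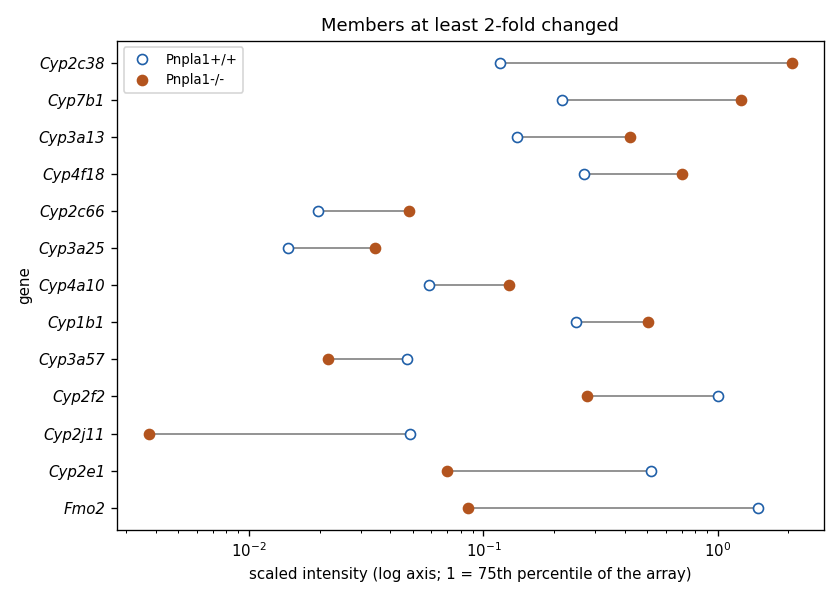
Intensity of the 13 members at least 2-fold changed (y axis), each divided by the 75th percentile of its array (x axis, log scale), in *Pnpla1*+/+ (open) and *Pnpla1*-/- skin (filled), 1 array each. The 8 upper genes are higher and the 5 lower genes lower in *Pnpla1*-/- skin; the signal of *Cyp2j11* in *Pnpla1*-/- skin is below background, and levels are not comparable between rows.

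Among the sterol and bile acid genes, 4 of 6 were measured and 1 was higher. *Cyp7b1*, an oxysterol hydroxylase, rose from 455.3 to 2173 (2.54, 5.80-fold), at chr3:17972286-17972345 on the minus strand. *Cyp39a1*, which acts on brain-derived oxysterol, stood at 3914 and 2721 (-0.24), *Cyp27a1*, the mitochondrial sterol side-chain hydroxylase, at 72.06 and 84.15 (0.50), and *Cyp46a1*, the neuronal cholesterol hydroxylase, at 188.0 and 192.9 (0.32).

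None of the 3 measured steroid hormone genes was 2-fold changed: *Cyp11a1*, which cleaves the cholesterol side chain, was at -0.33, *Cyp17a1* at 0.16 and *Cyp21a1* at 0.40. In the vitamin D pathway, *Cyp27b1*, which makes the active hormone, stood at 84.49 and 37.92 (-0.87). *Cyp24a1*, which breaks it down, went from 50.77 to below background at 7.563, a bound of -0.94. *Cyp2r1*, which makes the precursor of that hormone, was at 0.37 at one probe and 0.35 at the other. No value of these 3 genes reached 2-fold, though that of *Cyp24a1* is only the least fall. *Cyp20a1*, an orphan P450, was at -0.62.

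The genes that work with these enzymes were read from 7 lists. The electron donor list of 10 genes also took in *Pgrmc1* and *Pgrmc2*, which are not donors. Of these 10 genes, 9 were measured and none reached 2-fold as a difference or a bound (median -0.07). *Por*, the P450 oxidoreductase, was the brightest, at 15790 and 19533 (0.59). Of 7 receptors that control P450 genes, counting partners such as *Arnt* and *Arnt2*, 6 were measured and none was 2-fold changed (median -0.11). *Rxrb* was the brightest of them, at 12738 and 10656 (0.02), and *Ahr* was at -0.38. Of 4 epoxide hydrolases, *Ephx3*, an epidermal hydrolase of fatty acid epoxides, rose from 1628 to 2873 (1.1), and *Ephx1*, the brightest, was at 9511 and 5200 (-0.59).

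Among 6 measured other oxidases, *Xdh*, xanthine dehydrogenase, rose from 1824 to 4846 (1.69) and *Aox4*, an aldehyde oxidase, from 2847 to 4991 (1.09). Among 7 measured UDP-glucuronosyltransferases, which couple oxidised products to sugar, *Ugt1a10* rose from 140.2 to 257.4 (1.16) and *Ugt2b38* had a bound of 1.01. *Ugt3a2* fell from 323.7 to 64.44 (-2.05), and *Ugt3a1* from 235.7 to below background at 32.06, a bound of -2.60. *Ugt1a6b*, the brightest, was at 12326 and 12791 (0.34). No value of the 5 measured sulfotransferases reached 2-fold (median 0.35), that of *Sult1d1* being a bound of -0.91, with *Sult2b1*, the cholesterol sulfotransferase of epidermis, the brightest at 15774 and 21554 (0.73). Of the 41 genes measured over the 7 lists, 5 were higher and 2 lower, where the shares of all genes were 6.70% and 3.04%. Under spike-in scaling 1 was higher and 5 lower, where those shares were 3.73% and 9.82%.

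**Figure D4:**
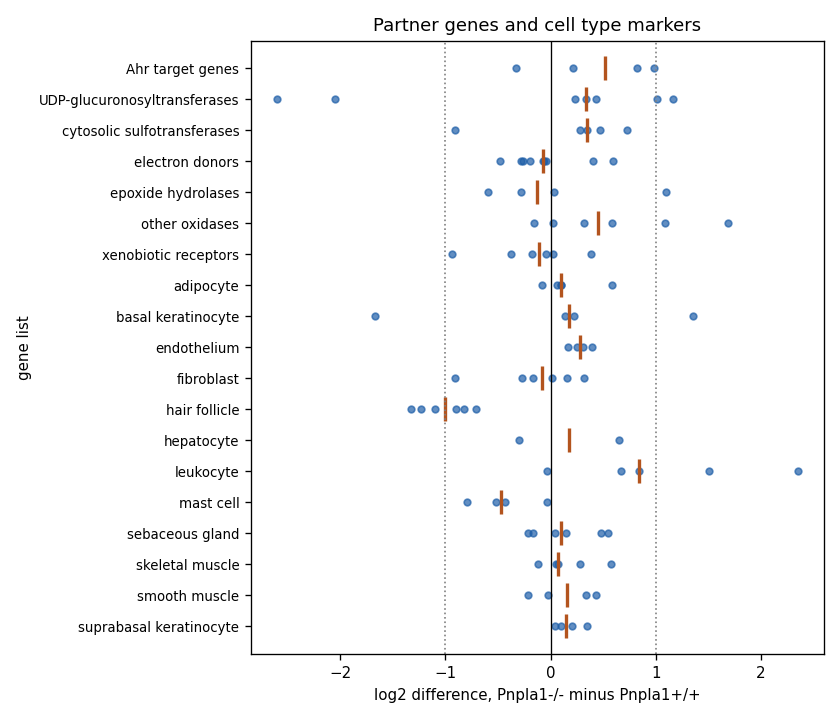
Log2 difference between the *Pnpla1*-/- and *Pnpla1*+/+ arrays (x axis) for each measured gene (points) of 7 partner lists and 12 lists of cell type markers (y axis), with a bar at the list's median and dotted lines at 2-fold. All 6 hair follicle markers lie below 0 (median -1.0), the leukocyte median is 0.84 and the other marker medians lie between -0.47 and 0.28.

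Markers of the cell types that skin RNA can hold were read on the same arrays. All 6 hair follicle markers were lower, 3 of them at least 2-fold, with a median of -1.0 and their scaled intensities summed to 82.01 on the *Pnpla1*+/+ array and 42.0 on the other, with *Krt71* the brightest. The hair follicle markers moved in the direction of *Fmo2*, *Cyp2e1*, *Cyp2f2*, *Cyp2j11* and *Cyp3a57*, and their part in those results was not tested. The basal keratinocyte list was mixed. In it *Krt15*, also a marker of follicle stem cells, fell from 82002 to 21178 (-1.67), whereas *Krt14* was at 1.35, *Krt5* at 0.22 and *Trp63* at 0.14. Of the 5 leukocyte markers 2 were at least 2-fold higher, *Lyz2* from 361.1 to 1512 (2.35) and *Ptprc* from 232.1 to 542.2 (1.51), with a summed scaled intensity of 14.35 and 20.49 and *Csf1r* the brightest (0.67). *Cd68* was at 0.84, and *Itgam*, which neutrophils and macrophages express, stood at 11846 and 9569 (-0.03). The 4 markers other than *Itgam* moved in the direction of *Cyp4f18*, and their part in that result was not tested.

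None of the 5 adipocyte markers was 2-fold changed (median 0.10), with a summed scaled intensity of 86.81 and 102.8 and *Fabp4* the brightest at 89342 and 78651 (0.10), and their part in the *Cyp2e1* result was not tested. The hepatocyte markers *Afp*, *Apoa1* and *Ttr* were above background on neither array, and the summed scaled intensity of all 5 hepatocyte markers was 0.136 and 0.163. Suprabasal keratinocyte (0.15), fibroblast (-0.08), sebaceous gland (0.10), skeletal muscle (0.07), smooth muscle (0.16) and endothelial (0.28) medians were all nearer 0 than those of follicle and leukocyte markers, mast cell markers had a median of -0.47, and the 4 basal keratinocyte markers had one of 0.18 with *Krt14* 2-fold higher.

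**Figure D5:**
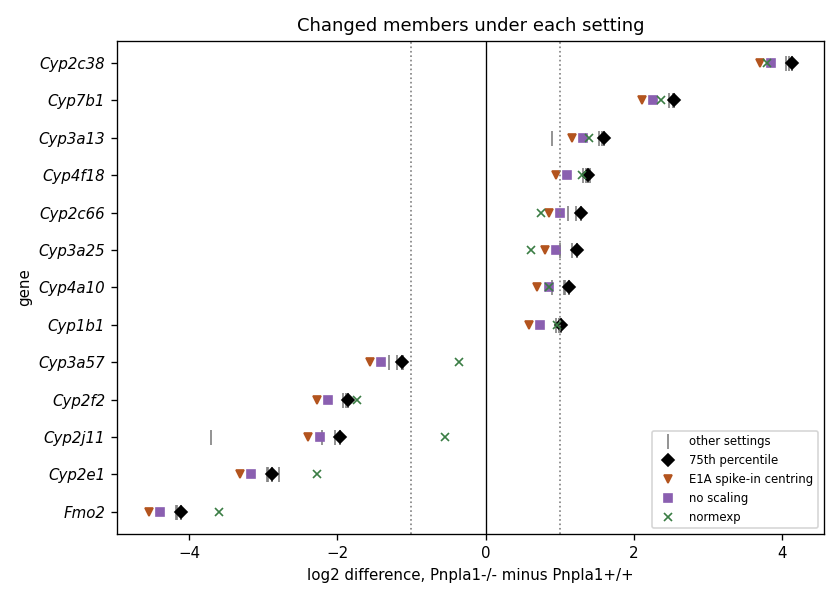
Log2 difference between the *Pnpla1*-/- and *Pnpla1*+/+ arrays (x axis) for the 13 members at least 2-fold changed (y axis) under each setting of the processing, with dotted lines at 2-fold; diamonds are the values reported here. All 13 kept their side of 0 wherever a setting gave a value, and *Cyp2c38*, *Cyp7b1*, *Cyp2f2*, *Cyp2e1* and *Fmo2* stayed beyond the lines in all 10 alternative settings.

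Across the settings all 13 changed members kept their direction wherever a setting gave a value, and 5 stayed at least 2-fold changed throughout. *Fmo2* ranged from -4.54 to -3.59, *Cyp2c38* from 3.70 to 4.13, *Cyp2e1* from -3.31 to -2.28, *Cyp7b1* from 2.11 to 2.54 and *Cyp2f2* from -2.28 to -1.73. The other 8 came under 2-fold in at least 1 setting, with the dim *Cyp2j11* (-3.70 to -0.55) and *Cyp3a57* (-1.56 to -0.36) the most variable of the lower genes.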

How the data were processed

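Per the labels and the deposited methods, the authors labelled pooled RNA with Cy3, hybridised it to Agilent 4x44K v2 mouse arrays, scanned these and extracted them with Agilent Feature Extraction 11.5.1.1. The deposited value of each spot is a linear intensity, background-subtracted and detrended. The authors also deposited a table of each intensity as a ratio to 1 factor per array near its 75th percentile, used here as an alternative.

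From the intensities, log2 of the signal was taken relative to the 75th percentile of the spots other than controls (Python 3.11.15, numpy 2.4.6, pandas 2.3.3; normexp with limma 3.58.1 in R 4.3.3). Spots flagged as outliers on at least 1 of the arrays were dropped (138 and 82 flagged), repeated spots were averaged, and a gene was read from its brightest probe well above background on at least 1 array. The calculation was tested on simulated data with changes only in brighter genes above background on both arrays. Bounds and changes of dim probes were therefore not tested. Names are those of the array design; 118 of 122 member probes matched RefSeq (GRCm38.p6) by accession, and 1, *Cyp2c44*, is now *Cyp2c23*. Genes at least 2-fold changed and the 5 brightest members are given with both intensities, other members by range, count or single values, and partner genes when 2-fold changed or the brightest of their list. The GT repeat count and the chromosomal clusters were added after the values were seen. The members and lists were chosen with earlier results of these data known. Of the measured members, 1 counts in the totals but its own values are not reported here. With 1 array a genotype, no test was made, and the number of arrays limits the precision. Scaling, background correction, probe choice, filters and thresholds were varied.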

Additional observations from a re-analysis of the deposited data

How the results depend on the processing

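The count of 8 members at least 2-fold higher was 20 at 1.5-fold (13.8% of all genes), 3 at 3-fold (3.05%), 3 with spike-in centring (3.73%), 5 without scaling (4.47%), 17 of 93 without a filter on dim probes (10.1%) and 4 with normexp background correction (4.33%). The count of 5 lower members was 9 at 1.5-fold (9.35% of all genes), 9 with spike-in centring (9.82%) and 3 with normexp (1.45%). The members' median of 0.36 became -0.07 with spike-in centring and 0.08 without scaling, settings that moved the median of all genes by -0.43 and -0.28. Of all changed genes 68.8% were higher, against 27.5%, 41.2% and, with quantile normalization, 58.8%. Partner genes at least 2-fold higher (5) were 1, 1, 9 and 3 with spike-in centring, without scaling, without the filter and with normexp. Those lower (2) were 5, 4, 4 and 1 with spike-in centring, without scaling (6.37% of all genes), with quantile normalization (3.99%) and with probes above background on both arrays only (2.56%). The causes were not tested. No paired analysis was possible because each genotype has 1 array, and the slide could not be fitted as a block because both arrays shared 1 slide. Signals below an intensity of 100 limit the dim members.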

Other observations

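P450 genes outside the naming rule gave further values. *Cyp51*, the sterol demethylase of cholesterol synthesis, stood at 928.1 in *Pnpla1*+/+ and 1402 in *Pnpla1*-/- skin (0.88). *Ptgis*, prostacyclin synthase, was at 1759 and 1293 (-0.16), and *Tbxas1*, thromboxane synthase, at 381.2 and 309.6 (-0.02). The dim omega-hydroxylase gene *Cyp4a12b* was at 27.90 and 36.56 (0.67), and the pseudogene *Cyp4f41-ps* at 36.68 and 39.72 (0.40). None of these 5 was 2-fold changed.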
